A study of Mus musculus with 37 samples.

Results

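Neonatal rat ventricular myocytes (NRVM) that had received conditioned medium from ATP-treated myocytes were compared with NRVM that had received medium from vehicle-treated myocytes. The comparison rests on 6 RNA-Seq libraries, 3 per medium, out of 15 NRVM libraries in 5 media and 37 samples in the series. Myocyte conditioned medium (MCndM) was collected from one set of NRVM after treatment with ATP, vehicle, recombinant ENPP1, ENPP1 together with ATP (ENPP1+ATP) or AMP, and was then placed on the NRVM that were sequenced 24 h later. The labels name the rat strain as Sprague-Dawley, and the cells are described as cardiomyocytes. The organism label of these libraries says mouse, whereas the gene symbols and the genome build in the processing notes (rn6) are those of the rat, so the genes are treated as rat genes here. The ATP dose is not given in the sources used here. The labels do not say that the 3 libraries of a medium came from separate cultures. The paper's statistics section says that n stands for biological replicates, without naming these libraries. The p-values therefore measure the spread between these libraries, which may be technical.

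ATP released by injured cells is a danger signal that acts on P2X ion channels and P2Y receptors, and ecto-nucleotidases cut it stepwise to AMP and adenosine. ENPP1 is the ectoenzyme that splits ATP into AMP and pyrophosphate, so that the ATP and the ENPP1+ATP media differ in the enzyme added to the donor myocytes. Neonatal myocytes in culture contract, express a full set of sarcomere and ion channel genes and still hold a small capacity for DNA synthesis. The p53 protein, which recurs below, is a transcription factor that is stabilised by DNA damage and nucleotide imbalance and that switches on genes of cell cycle arrest, DNA repair and apoptosis.

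Total counts per library in these 6 libraries ranged from 13481389 to 15871033. Expression is given as CPM, the unit of counts scaled to a common library size, with TMM factors, and a difference as a log2 fold change of ATP over vehicle MCndM with its standard error (SE), where 1 stands for a doubling. The 3 libraries of each medium lay close together, with a biological coefficient of variation of 0.0499 over all 15 NRVM libraries. Of all 12 cardiomyocyte markers in the count table, each was detected in all 6 libraries, and so was each of 10 fibroblast markers, so these cultures held fibroblast transcripts beside those of myocytes. Summed over its list, the level of cardiomyocyte markers was 47502 to 49964 CPM with vehicle and 27568 to 29754 CPM with ATP MCndM. Fibroblast markers summed to 24798 to 26188 and 10401 to 11745 CPM. Endothelial markers stood at 45.2 to 51.3 and 57.1 to 73.0 CPM, and macrophage markers at 5.85 to 7.30 and 18.3 to 20.0 CPM. Smooth muscle or pericyte markers overlapped between the media (1701 to 1849 and 1502 to 1854 CPM), and Schwann or glial markers were at 6.23 to 7.49 and 4.45 to 5.98 CPM. The defining macrophage gene C1qb had no count in any of the 6 libraries, and C1qa, C1qc and Adgre1 had at most 3 counts in each. In RNA from whole cultures, fewer cells of a type and less RNA per cell cannot be told apart.

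**Figure D1:**
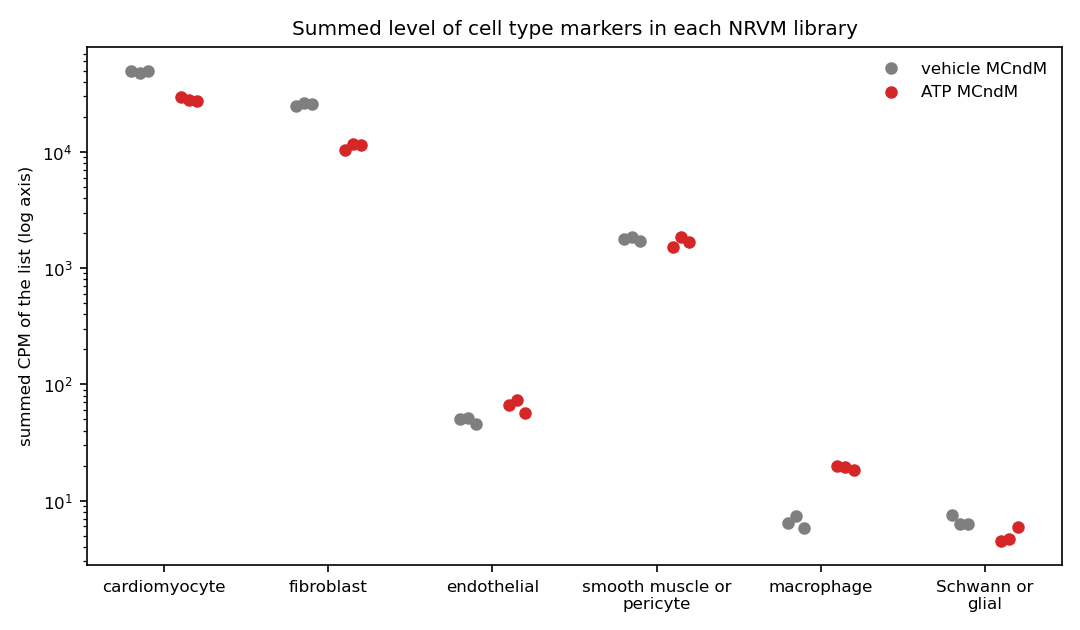
Summed CPM (log axis) of 6 cell type marker lists in each of the 3 vehicle (grey) and 3 ATP (red) MCndM libraries; each point is 1 library. Cardiomyocyte and fibroblast sums were lower in every ATP library than in every vehicle library, macrophage and endothelial sums were higher, and smooth muscle or pericyte sums overlapped.

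A large share of the genes expressed in these cultures differed between ATP and vehicle MCndM. Of 13461 genes tested, 4064 (30.2%) were higher and 4003 (29.7%) were lower with ATP than with vehicle MCndM at an adjusted p under 0.05. Among genes whose mean log2 CPM was 2 or more, the largest rise was in Cdh17, at 4.54, and the largest fall in Bmp10, at -4.10. Changes over 2-fold were found for 778 of the higher and 813 of the lower genes, and 1830 called genes changed by less than 1.2-fold. The split between directions depended on the scaling: 4064 of the called genes, or 50.4%, were higher with TMM factors, and 5322 against 3014, or 63.8%, with library totals, which moved the median of all genes by 0.11 on the log2 scale. The changes below are relative to the TMM scale, on which the median log2 fold change of all genes tested was 0.0064.

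**Figure D2:**
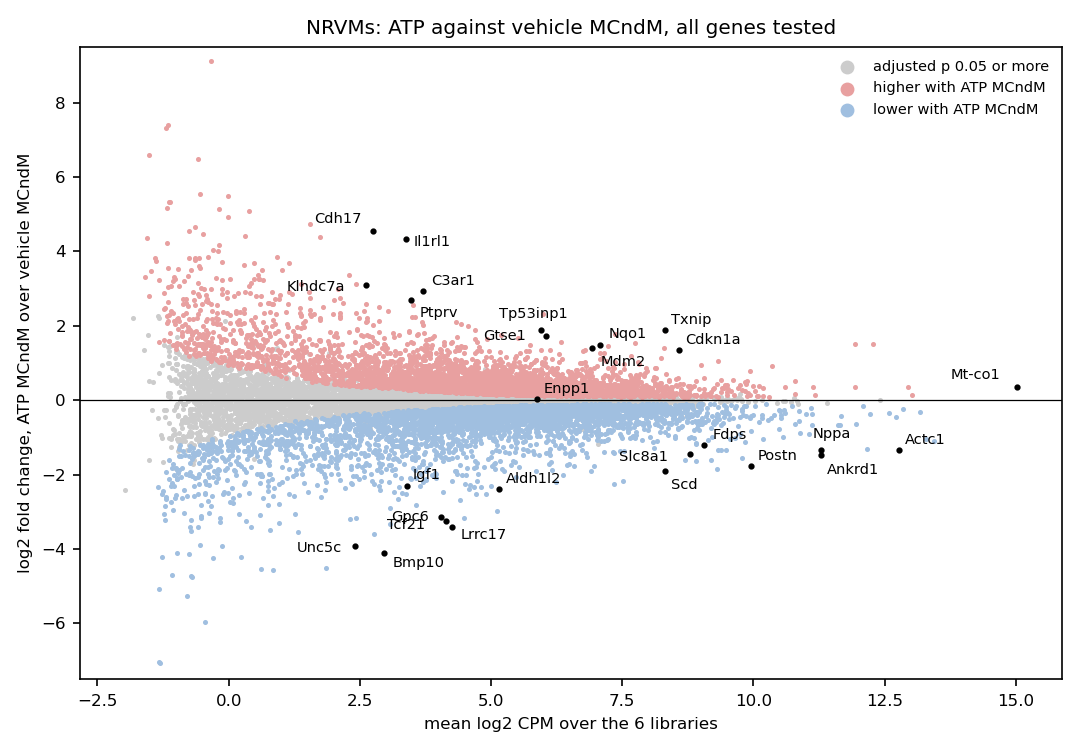
Log2 fold change of ATP over vehicle MCndM against the mean log2 CPM over the 6 libraries, 1 point per gene tested; red and blue points were higher and lower at an adjusted p under 0.05, and black points are named. Cdh17 and Il1rl1 lie above 4 and Bmp10 below -4, while Enpp1 lies at 0.024.

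The gene of the adhesion protein liver-intestine cadherin, Cdh17, had the largest rise among genes whose mean log2 CPM was 2 or more. Cdh17 was at 1.58, 1.10 and 1.29 CPM in the vehicle libraries and at 31.2, 30.0 and 32.2 CPM in the ATP libraries. Cdh17 rose by 4.54 ± 0.16 (SE) on the log2 scale (adjusted p = 3.09e-27). Il1rl1, which encodes the interleukin-33 receptor ST2, a protein known from strained myocytes, came next. Il1rl1 was at 2.34, 1.72 and 2.74 CPM in the vehicle libraries and at 42.1, 44.4 and 49.6 CPM in the ATP libraries. Il1rl1 rose by 4.33 ± 0.14 (SE) on the log2 scale (adjusted p = 2.90e-27). For both genes the ATP libraries lay far above the vehicle libraries and the groups did not overlap. Also among the 12 largest rises were Klhdc7a (3.10), the complement receptor gene C3ar1 (2.93), the fatty acid activating enzyme gene Acsl6 (2.70), the phosphatase gene Ptprv (2.69), Cib2 (2.62) and Ankrd13d (2.58), and 4 genes known only by locus or clone names.

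Bmp10, a BMP ligand made by heart muscle, had the largest fall among genes of that level. Bmp10 was at 32.6, 33.3 and 28.2 CPM in the vehicle libraries and at 1.70, 1.66 and 2.12 CPM in the ATP libraries. Bmp10 fell by 4.10 ± 0.17 (SE) on the log2 scale (adjusted p = 6.07e-17). Unc5c, a netrin receptor, went from 17.7, 18.8 and 22.7 CPM to 1.18, 1.42 and 1.29 CPM and fell by 3.91 ± 0.19 (SE) on the log2 scale (adjusted p = 1.98e-21). The transcription factor gene Tcf21, a marker of epicardial cells and fibroblasts, was at 49.96, 59.8 and 52.3 CPM with vehicle and 6.80, 3.97 and 6.43 CPM with ATP MCndM. Tcf21 fell by 3.24 ± 0.11 (SE) on the log2 scale (adjusted p = 3.78e-23). In each of these genes every ATP library was lower than every vehicle library. The other large falls were in Lrrc17 (-3.40), the membrane glycoprotein gene Gpm6a (-3.33), the bradykinin receptor gene Bdkrb2 (-3.20), the acid-sensing channel gene Asic1 (-3.17), Igsf10 (-3.17), the glypican gene Gpc6 (-3.14), the retinoic acid synthesis gene Aldh1a2 (-2.98), the potassium channel gene Kcnq5 (-2.90) and 1 gene with a clone name. Tcf21 is itself one of the fibroblast markers, whose sum was lower in the ATP libraries (above), and the part of fibroblast number in these falls was not tested.

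To see which programs moved, genes were grouped in lists of known function. The share of a list called in each direction is read against the 30.2% of all genes that were higher and the 29.7% that were lower.

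**Figure D3:**
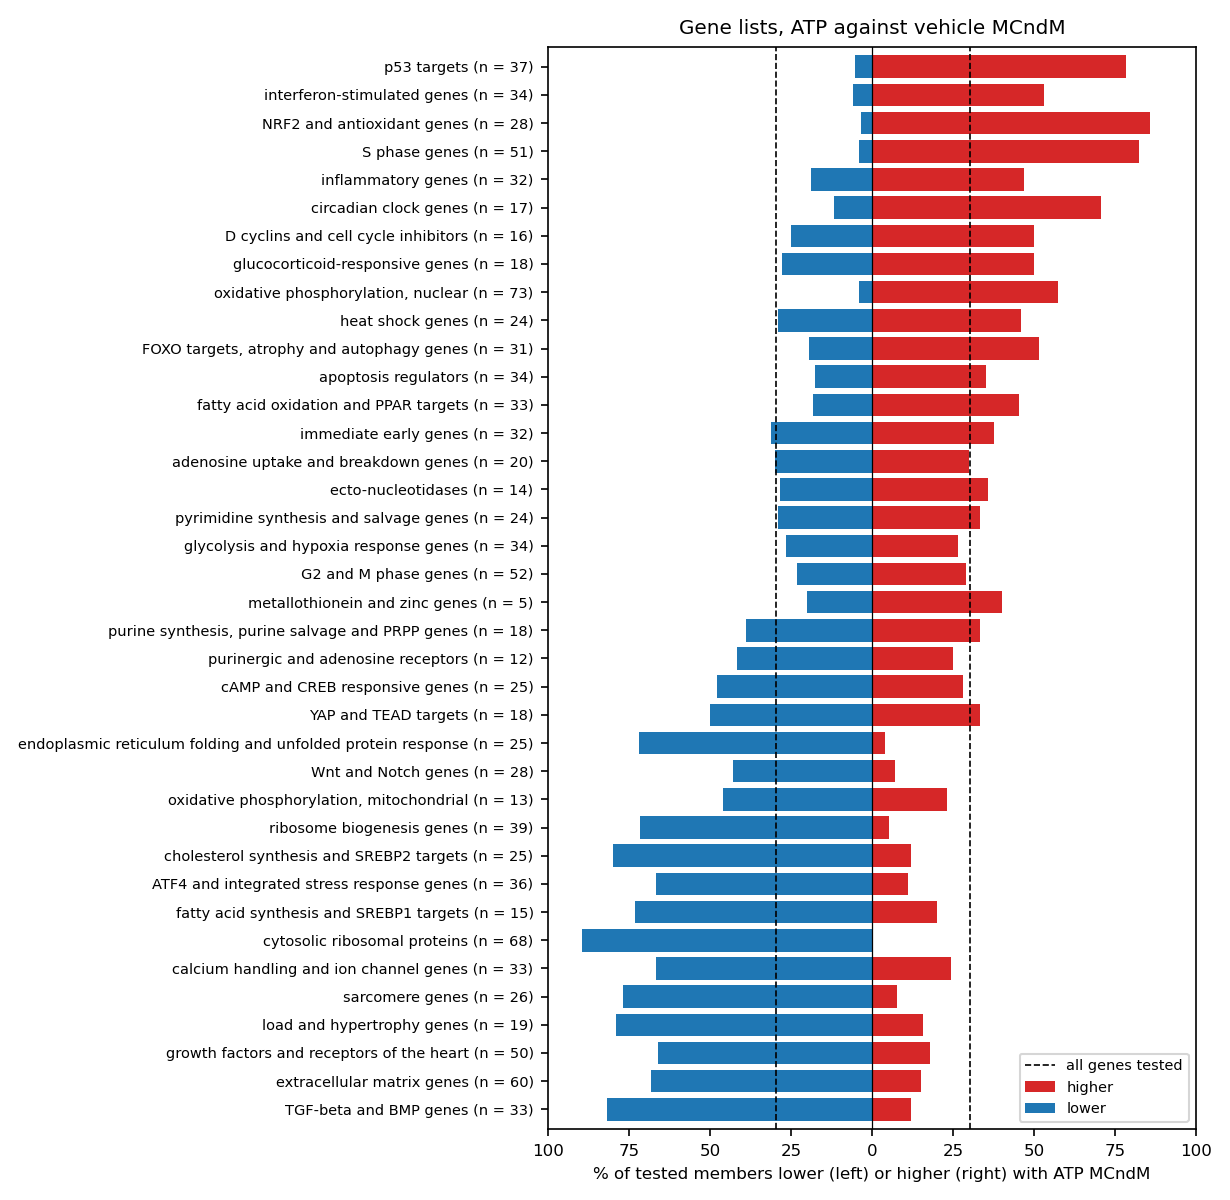
Share of the tested members of each gene list that were lower (blue, left) or higher (red, right) with ATP than with vehicle MCndM at an adjusted p under 0.05, ordered by the median log2 fold change; dashed lines mark the shares of all genes tested (30.2% higher, 29.7% lower). Targets of p53, S phase and NRF2 genes extend to the right and ribosomal protein, TGF-beta and BMP and sarcomere genes to the left.

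Most targets of p53 rose. Of 37 tested, 29 were higher and 2 lower, with a median log2 fold change of 0.60. Cdkn1a, which encodes the cell cycle inhibitor p21, is the best known of them. Cdkn1a was at 239, 242 and 241 CPM in the vehicle libraries and at 604, 589 and 632 CPM in the ATP libraries. Cdkn1a rose by 1.34 ± 0.041 (SE) on the log2 scale (adjusted p = 8.53e-29). The gene of the ubiquitin ligase that degrades p53, Mdm2, was at 78.0, 71.3 and 74.7 CPM with vehicle and at 199, 193 and 206 CPM with ATP MCndM. Mdm2 rose by 1.42 ± 0.047 (SE) on the log2 scale (adjusted p = 1.13e-27). Tp53inp1, a p53-induced gene of autophagy and cell death, had the largest rise of the list. Tp53inp1 was at 31.1, 32.8 and 32.0 CPM in the vehicle libraries and at 122, 114 and 119 CPM in the ATP libraries. Tp53inp1 rose by 1.89 ± 0.06 (SE) on the log2 scale (adjusted p = 1.77e-28). For these 3 genes the lowest ATP library exceeded the highest vehicle library by more than 2-fold. Ephx1, an epoxide hydrolase gene, rose by 1.49, and Fas, a death receptor gene, by 1.49. For ENPP1+ATP MCndM, the paper states that apoptosis genes driven by p53 did not change in myocytes. These cultures also held fibroblast transcripts (above), and the part of each cell type in the rise of p53 targets was not tested.

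The machinery of apoptosis moved less. Of 34 regulators tested, 12 rose and 6 fell, with a median of 0.10. With library totals 16 rose and 3 fell, with a median of 0.21. Bax, a pore-forming protein of the mitochondrial outer membrane, was at 70.0, 67.7 and 70.9 CPM with vehicle and 102, 103 and 106 CPM with ATP MCndM. Bax rose by 0.58 ± 0.05 (SE) on the log2 scale (adjusted p = 2.25e-13). Its relative Bak1 was at 83.6, 82.9 and 88.9 CPM with vehicle and 88.1, 88.5 and 91.0 CPM with ATP MCndM, a log2 fold change of 0.068 (adjusted p = 0.242, and 0.00245 with library totals). The antiapoptotic gene Bcl2 was at 13.2, 12.9 and 15.2 CPM with vehicle and 11.4, 12.5 and 12.3 CPM with ATP MCndM, a log2 fold change of -0.19 (adjusted p = 0.118). Bax passed the test and neither Bak1 nor Bcl2 did on the TMM scale, although the Bcl2 libraries did not overlap either. Mlkl, the executor of necroptosis, fell by 0.97. Bik, a BH3-only gene at low counts, rose by 0.85 (adjusted p = 0.022), and its adjusted p was 0.0938 without vehicle replicate 3, 0.0692 without ATP replicate 3 and 0.0628 without vehicle replicate 2.

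Genes of DNA replication rose as a group, while genes of mitosis did not. Of 51 S phase genes tested, 42 were higher and 2 lower, with a median of 0.47. Of 52 genes of G2 and M phase, 15 were higher and 12 lower (20 and 8 with library totals), with a median of -0.0088 that was 0.10 with library totals. Ccne2, a cyclin of the entry into S phase, was at 11.96, 12.5 and 10.4 CPM with vehicle and 27.9, 27.6 and 30.2 CPM with ATP MCndM. Ccne2 rose by 1.30 ± 0.095 (SE) on the log2 scale (adjusted p = 1.04e-15). The related cyclin gene Ccne1 rose by 1.07 and Rrm2, the regulated subunit of ribonucleotide reductase, by 1.00. The lower S phase genes were Tk1 at -0.45 and Pola1 at -0.19. Among genes of G2 and M phase, Gtse1 stood apart. Gtse1 was at 33.9, 38.1 and 36.7 CPM in the vehicle libraries and at 120.5, 121 and 117 CPM in the ATP libraries. Gtse1 rose by 1.72 ± 0.053 (SE) on the log2 scale (adjusted p = 8.53e-29). Gtse1 is known as a regulator of p53 in G2. The mitotic cyclin gene Ccnb1 moved the other way, from 23.4, 24.2 and 22.8 CPM to 12.2, 13.3 and 14.6 CPM, and fell by 0.81 ± 0.096 (SE; adjusted p = 1.06e-09). Kif15, a spindle motor gene, fell by 0.75. Of the G1 regulators, Ccnd2 rose by 0.71. Myc went from 55.2, 54.7 and 60.7 to 23.4, 20.5 and 22.0 CPM and fell by 1.37 ± 0.077 (SE; adjusted p = 1.34e-19). Which cell type of the cultures these cell cycle changes came from was not tested.

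Antioxidant genes rose and amino acid stress genes fell. NRF2 is the transcription factor that drives genes of glutathione, thioredoxin and NADPH supply. Of 28 NRF2 and antioxidant genes tested, 24 were higher and 1 was lower, with a median of 0.56. The quinone reductase gene Nqo1 is a standard NRF2 target. Nqo1 was at 80.6, 83.0 and 76.9 CPM in the vehicle libraries and at 212, 221 and 245 CPM in the ATP libraries. Nqo1 rose by 1.49 ± 0.064 (SE) on the log2 scale (adjusted p = 1.02e-15). Osgin1, an oxidative stress-induced gene, went from 12.03, 9.29 and 12.5 CPM to 36.2, 38.4 and 35.8 CPM and rose by 1.71 ± 0.094 (SE; adjusted p = 7.40e-20). The one lower member was the cystine transporter gene Slc7a11, which is also a target of ATF4, the factor of the integrated stress response. It went from 38.4, 39.5 and 38.0 CPM to 12.8, 11.7 and 10.3 CPM. Slc7a11 fell by 1.74 ± 0.095 (SE; adjusted p = 5.69e-20).

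Slc7a11 moved with most of the ATF4 list, of which 24 of 36 tested members fell and 4 rose, with a median of -0.34. Aldh1l2, an enzyme of mitochondrial one-carbon metabolism, fell most. Aldh1l2 was at 79.6, 81.2 and 83.4 CPM in the vehicle libraries and at 15.05, 17.1 and 14.4 CPM in the ATP libraries. Aldh1l2 fell by 2.39 ± 0.069 (SE) on the log2 scale (adjusted p = 1.19e-29). The cystathionine lyase gene Cth fell by 1.99 from a low level. The rising members were Gdf15 at 0.73, Ddit3 at 0.41, Atf3 at 0.32 and Sesn2 at 0.32. Of 25 genes of endoplasmic reticulum folding, 18 fell and 1 rose, with a median of -0.21. With library totals 12 fell and 3 rose, with a median of -0.10. Translocon genes Sec61b and Sec61a1 fell by 0.95 and 0.80. The one rise on the TMM scale was in the oxidase gene Ero1a, which went from 53.7, 46.8 and 51.8 to 122, 115 and 124 CPM and rose by 1.24 ± 0.055 (SE; adjusted p = 2.93e-23). Heat shock genes were mixed, with 11 of 24 higher and 7 lower. Hspa1b, an inducible HSP70 gene, rose by 2.87 from 0.962, 0.964 and 0.456 to 6.08, 5.81 and 5.85 CPM, while the constitutive HSP70 gene Hspa8 fell by 0.65 and the small heat shock gene Hspb6 rose by 0.87. Hspa1b has a near-identical copy, so its counts are uncertain.

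More interferon-stimulated and inflammatory genes rose than fell. Of 34 interferon-stimulated genes tested, 18 rose and 2 fell, with a median of 0.60. The guanylate-binding protein gene Gbp2 was at 6.39, 5.10 and 6.99 CPM with vehicle and 23.8, 26.3 and 29.4 CPM with ATP MCndM. Gbp2 rose by 2.11 ± 0.11 (SE) on the log2 scale (adjusted p = 2.00e-20). The chemokine gene Cxcl11 (1.17, 0.413 and 0.760 against 3.53, 3.86 and 4.37 CPM) and the antiviral GTPase gene Mx2 (0.344, 0.0689 and 0.0760 against 1.37, 1.96 and 1.22 CPM) were low in both media. Cxcl11 rose by 2.32 and Mx2 by 3.14 ± 0.66 (SE; adjusted p = 1.84e-04), with the ATP libraries above all vehicle libraries. The 2 lower members were Bst2 at -1.73 and Ifit2 at -1.01. Of 32 inflammatory genes tested, out of 50 in the table, 15 rose and 6 fell, with a median of 0.38. Beside Il1rl1 these included the cytokine gene Lif, which went from 3.16, 2.89 and 3.12 to 10.3, 10.8 and 9.84 CPM, and Osmr, the oncostatin M receptor gene, which went from 7.28, 7.23 and 7.91 to 15.6, 18.8 and 22.7 CPM. Lif rose by 1.75 and Osmr by 1.35. The macrophage growth factor receptor gene Csf1r was at 0.618, 0.275 and 0.836 CPM with vehicle and 6.28, 9.31 and 6.69 CPM with ATP MCndM and rose by 3.69 ± 0.28 (SE; adjusted p = 2.81e-15). Its list rose in 4 of 6 tested members, from sums between 5.85 and 7.30 CPM to sums between 18.3 and 20.0 CPM, with C1qb at 0 in all 6 libraries, and the part of macrophages in the inflammatory genes was not tested.

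Contractile genes were lower. Of 26 sarcomere genes tested, 20 fell and 2 rose, with a median of -0.49. Actc1, the cardiac actin gene and a defining cardiomyocyte transcript, had one of the 3 largest falls of the list. Actc1 was at 11224, 11071 and 11257 CPM in the vehicle libraries and at 4652, 4139 and 4368 CPM in the ATP libraries. Actc1 fell by 1.35 ± 0.038 (SE) on the log2 scale (adjusted p = 6.93e-30). Xirp2, an actin-binding protein gene of the intercalated disc, fell most within the list. Xirp2 was at 1273, 1100.5 and 1243 CPM in the vehicle libraries and at 299.7, 357 and 345 CPM in the ATP libraries. Xirp2 fell by 1.85 ± 0.12 (SE) on the log2 scale (adjusted p = 9.09e-08). Ankrd1, a titin-associated stress sensor and a target of YAP, went from 4301, 4026 and 4161 CPM to 1555, 1441 and 1510.1 CPM. Ankrd1 fell by 1.47 ± 0.041 (SE) on the log2 scale (adjusted p = 2.05e-30). None of these 3 genes overlapped between the media. The rising members were Myoz2 at 0.52 and Tnni3 at 0.19.

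The load response fell with it. Of 19 genes of load and hypertrophy, 15 fell and 3 rose (Nfatc2 at 0.79, Hbegf at 0.71 and Mef2c at 0.19). The natriuretic peptide genes Nppa and Nppb are the classic markers of a loaded ventricle. Nppa was at 3972, 3874 and 4082 CPM in the vehicle libraries and at 1621, 1543 and 1545 CPM in the ATP libraries. Nppa fell by 1.34 ± 0.04 (SE) on the log2 scale (adjusted p = 2.63e-29). Nppb was at 871, 800.1 and 884 CPM with vehicle and at 269, 264 and 286 CPM with ATP MCndM. Nppb fell by 1.64 ± 0.095 (SE) on the log2 scale (adjusted p = 3.01e-08). Both genes were thus lower in every ATP library. The cardiomyocyte marker list, to which Actc1 and Nppa belong, fell in 8 of 12 members and rose in 2 (Ckm at 0.24 and Tnni3 at 0.19), so its genes did not all move together.

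Genes of calcium handling and ion channels were also lower, with 22 of 33 down and 8 up and a median of -0.44. Slc8a1, the sodium-calcium exchanger gene, was at 772, 705 and 713 CPM with vehicle and 275, 272 and 252 CPM with ATP MCndM. Slc8a1 fell by 1.45 ± 0.044 (SE) on the log2 scale (adjusted p = 5.19e-29). The L-type calcium channel gene Cacna1c went from 151, 148 and 149 CPM to 58.4, 57.7 and 49.9 CPM and fell by 1.43 ± 0.054 (SE; adjusted p = 1.66e-25). Cacna1g, a T-type channel gene, fell by 1.53, and Ryr2, the calcium release channel of the sarcoplasmic reticulum, by 1.34. Entry, release and extrusion of calcium were therefore each represented among the lower genes, with every ATP library below every vehicle library.

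**Figure D4:**
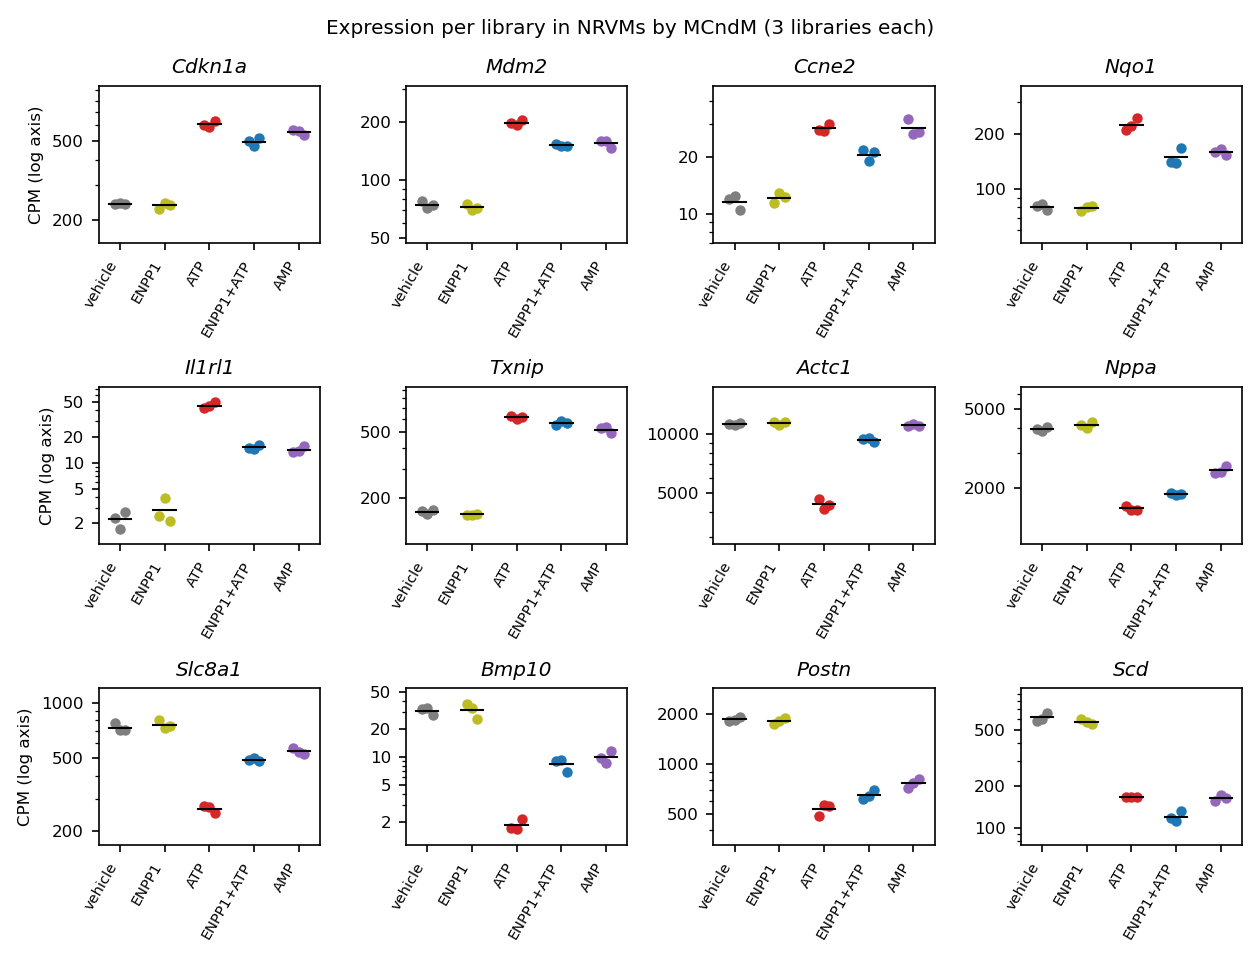
CPM (log axis) of 12 genes in each of the 15 NRVM libraries, grouped by MCndM; points are libraries and bars are means of 3. ATP libraries stand apart from vehicle and ENPP1 libraries for every gene shown. All 12 genes also differ between ATP and ENPP1+ATP MCndM at an adjusted p under 0.05. The log2 fold change of ATP over ENPP1+ATP MCndM is smallest in size in Txnip (0.11) and largest in Bmp10 (-2.19).

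Energy metabolism showed smaller shifts. Of 73 nuclear genes of oxidative phosphorylation tested, 42 rose and 3 fell, with a median of 0.15. With library totals 59 rose and 3 fell, with a median of 0.25. Cox6a2, the muscle form of a cytochrome oxidase subunit, was at 554, 544 and 557 CPM with vehicle and 798, 775 and 829 CPM with ATP MCndM. Cox6a2 rose by 0.54 ± 0.04 (SE) on the log2 scale (adjusted p = 1.34e-15). The 3 lower members were Atp5f1d at -0.31, Ndufs8 at -0.26 and Cox6a1 at -0.20. Transcripts of the mitochondrial genome were split, with 3 of 13 higher (Mt-co1 at 0.35, Mt-nd1 at 0.35 and Mt-nd2 at 0.13) and 6 lower, against 4 higher and 3 lower with library totals. Mt-co1 went from 29626, 29639 and 29663 CPM to 39278, 35576 and 38414 CPM. Mt-cyb went the other way, from 7939, 7964 and 7781 CPM to 6024, 5559.6 and 5802 CPM, a fall of 0.45 ± 0.039 (SE) on the log2 scale (adjusted p = 1.68e-13). These mitochondrial transcripts come from one precursor per strand, and both changes exceeded the spread between libraries. Mitochondrial genes took 8.14 to 8.35% of counts with vehicle and 8.77 to 9.62% with ATP MCndM. Of 33 genes of fatty acid oxidation, 15 rose and 6 fell, with a median of 0.10 that was 0.21 with library totals. Pdk4, the kinase that turns off glucose oxidation, rose by 1.06 from 7.15, 8.26 and 9.20 to 17.1, 17.1 and 17.1 CPM, Acot2 rose by 0.58 and the lipoprotein lipase gene Lpl fell by 0.58.

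Glycolysis and hypoxia genes were divided, with 9 higher and 9 lower of 34 (15 and 8 with library totals) and a median of -0.0067 that was 0.10 with library totals. The glucose transporter gene Slc2a1 fell by 0.70 and the lactate transporter genes Slc16a3 and Slc16a1 by 0.73 and 0.61. Txnip, an inhibitor of glucose uptake that is induced by glucose metabolites, had the smallest p-value of all genes tested. Txnip was at 166, 161 and 169.5 CPM in the vehicle libraries and at 623, 599 and 615 CPM in the ATP libraries. Txnip rose by 1.89 ± 0.041 (SE) on the log2 scale (adjusted p = 4.62e-34). Its paralogue Arrdc4, known for the same regulation, was at 11.1, 12.5 and 11.8 CPM with vehicle and 43.6, 45.9 and 51.8 CPM with ATP MCndM. Arrdc4 rose by 2.00 ± 0.092 (SE) on the log2 scale (adjusted p = 1.20e-22). These 2 genes belong to the list of FOXO targets, atrophy and autophagy genes, of which 16 of 31 rose and 6 fell, or 18 and 3 with library totals. The autophagy receptor gene Sqstm1 of the same list rose by 1.06, from 436, 407 and 499 to 928, 914 and 947 CPM.

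Lipid synthesis was lower. Of 25 genes of cholesterol synthesis, 20 fell and 3 rose (among them Idi1 at 0.27 and Ebp at 0.23), with a median of -0.34. Fdps, the farnesyl diphosphate synthase gene, went from 833, 766 and 845 CPM to 343, 345 and 368 CPM. Fdps fell by 1.21 ± 0.045 (SE) on the log2 scale (adjusted p = 1.16e-24). Mvk, the mevalonate kinase gene, fell by 0.69. Of 15 genes of fatty acid synthesis, 11 fell and 3 rose (Me1 at 0.67, Lpin1 at 0.43 and Acss2 at 0.33). The stearoyl-CoA desaturase gene Scd was the clearest. Scd was at 579, 594 and 659.6 CPM in the vehicle libraries and at 164, 165 and 165 CPM in the ATP libraries. Scd fell by 1.89 ± 0.051 (SE) on the log2 scale (adjusted p = 4.72e-25). Acaca, which makes malonyl-CoA, fell by 1.00. Elovl6, a low-count member whose libraries overlapped, fell by 1.34 (adjusted p = 0.0312), with an adjusted p of 0.055 in DESeq2 and from 0.0608 to 0.206 without ATP replicate 2 or 3 or vehicle replicate 2 or 3.

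Most cytosolic ribosomal protein genes fell. Of 68 cytosolic ribosomal protein genes tested, 61 fell and the others did not pass the test, with a median of -0.41. Rpl10a, a protein of the large subunit, was at 207, 209 and 217 CPM with vehicle and 118, 115 and 116 CPM with ATP MCndM. Rpl10a fell by 0.86 ± 0.046 (SE) on the log2 scale (adjusted p = 2.60e-20). Rps9 of the small subunit fell by 0.85 and Rpl12 by 0.74. Ribosomal protein genes have many processed copies in mammalian genomes, so that reads may have been split between them. Of 39 genes of ribosome biogenesis, 28 fell and 2 rose (Noc4l at 0.22 and Nop16 at 0.17), with a median of -0.29. With library totals 19 fell and 2 rose, with a median of -0.18. Rrp12, a processing factor, went from 74.3, 65.4 and 77.6 CPM to 33.8, 32.6 and 32.8 CPM and fell by 1.13 ± 0.066 (SE; adjusted p = 4.32e-19). Taf1d, a factor of RNA polymerase I, fell by 1.15 and the helicase gene Ddx21 by 0.70. In each of these named genes the vehicle libraries were all above the ATP libraries.

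Extracellular matrix and signalling ligands fell together with the fibroblast markers. Of 60 matrix genes tested, 41 fell and 9 rose, with a median of -0.63. Tnc, the gene of the wound matrix protein tenascin C, was at 381, 398 and 390.3 CPM with vehicle and 74.1, 94.0 and 93.4 CPM with ATP MCndM. Tnc fell by 2.16 ± 0.071 (SE) on the log2 scale (adjusted p = 2.24e-14). Postn, which encodes periostin of activated fibroblasts, was at 1821, 1827 and 1906 CPM with vehicle and 488, 568 and 561 CPM with ATP MCndM. Postn fell by 1.78 ± 0.06 (SE) on the log2 scale (adjusted p = 1.92e-15). Col11a1, a minor fibrillar collagen gene, fell by 1.75. In all 3 genes the ATP libraries were the lower ones. The fibroblast markers fell in 7 of 10 members, from sums between 24798 and 26188 CPM to sums between 10401 and 11745 CPM, with Thy1 higher (1.16) and with Lum and Dpt at log2 fold changes of 0.25 (adjusted p = 0.676) and -0.024 (adjusted p = 0.879). No defining fibroblast marker was at 0, and the part of fibroblast number in the matrix genes was not tested.

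Of 33 genes of the TGF-beta and BMP pathways, 27 fell and 4 rose (Fst at 1.18, Fstl3 at 0.58, Inhba at 0.54 and Smad3 at 0.16), with the lowest median of the program lists (-0.72). Among the ligands, Bmp6 went from 25.01, 33.1 and 31.9 CPM to 8.51, 9.43 and 10.8 CPM and fell by 1.64 ± 0.11 (SE; adjusted p = 3.82e-17), beside the fall of Bmp10. The BMP target gene Id3 went from 62.0, 64.9 and 64.7 CPM to 19.5, 19.5 and 22.4 CPM and fell by 1.64 ± 0.097 (SE; adjusted p = 5.64e-13). Ligands and a target thus fell together, and the highest of the rising members was Fst, which encodes follistatin, a binder of activins. Of 50 growth factor and receptor genes, 33 fell and 9 rose. Igf1 was at 22.7, 23.3 and 23.0 CPM with vehicle and 3.66, 4.86 and 5.46 CPM with ATP MCndM. Igf1 fell by 2.30 ± 0.20 (SE) on the log2 scale (adjusted p = 3.77e-08). The PDGF receptor gene Pdgfra fell by 2.53 and the angiotensin receptor gene Agtr1a by 2.28. Of 28 Wnt and Notch genes, 12 fell and 2 rose (Notch1 at 1.33 and Lef1 at 0.47), and the feedback targets Axin2 and Nkd1 fell by 1.74 and 1.65. Targets of YAP and TEAD were split, with 6 higher and 9 lower of 18, and the tissue factor gene F3 fell most (-1.99).

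Genes of the circadian clock were higher in 12 of 17 tested members and lower in 2 (Npas2 at -1.10 and Bhlhe41 at -0.48). The repressor genes Cry1 and Cry2 rose by 0.87 and 0.68. Cry2 was at 62.1, 64.0 and 64.8 CPM with vehicle and 102, 101.5 and 103 CPM with ATP MCndM, with no overlap. Immediate early genes went both ways, with 12 higher and 10 lower of 32. The AP-1 gene Fosl1 rose by 2.22 and Klf2, a shear-responsive factor, fell by 1.58. Genes responsive to cAMP were higher in 7 and lower in 12 of 25. Fosb rose by 1.49 and the phosphodiesterase gene Pde10a fell by 1.03. Glucocorticoid-responsive genes were higher in 9 and lower in 5 of 18, and Hsd11b1, which activates glucocorticoids, rose by 1.73.

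Genes that sense and process extracellular nucleotides were considered one by one, since the donor cells of these media had received ATP. Of 12 purinergic and adenosine receptor genes tested, out of 16 in the table, 3 rose and 5 fell. Among receptors for ATP and UTP, P2ry2 was at 14.1, 16.2 and 15.1 CPM with vehicle and 10.3, 11.03 and 11.6 CPM with ATP MCndM. P2ry2 fell by 0.46 ± 0.11 (SE) on the log2 scale (adjusted p = 4.14e-04). The ADP receptor gene P2ry1 went from 12.3, 12.5 and 11.2 CPM to 9.36, 9.49 and 8.16 CPM and fell by 0.41 ± 0.12 (SE; adjusted p = 0.00292). Both receptors were lower in every ATP library. Of the ATP-gated channels, P2rx4 fell by 0.48 from 17.5, 17.2 and 17.3 to 13.1, 12.9 and 11.3 CPM. P2rx5 rose by 0.44 from 14.3, 12.5 and 14.3 to 17.6, 19.0 and 19.3 CPM. The channel genes P2rx1 and P2rx3 were low in all 6 libraries, with log2 fold changes of -1.69 (adjusted p = 0.00447) and 0.80 (adjusted p = 0.00892). P2ry4, a UTP receptor gene, had 8 counts over the 3 vehicle libraries and 54 over the 3 ATP libraries, a rise of 2.53 ± 0.62 (SE; adjusted p = 5.84e-04). P2rx7 and P2ry6 were at -0.41 (adjusted p = 0.519) and 0.51 (adjusted p = 0.189). Of the adenosine receptors, Adora1 was at 16.5, 15.6 and 16.6 CPM with vehicle and 20.0, 17.7 and 17.04 CPM with ATP MCndM, a log2 fold change of 0.17 (adjusted p = 0.132, and 0.012 with library totals). Adora2a was at 0.43 (adjusted p = 0.417), and Adora2b, with 30 and 9 counts over the vehicle and ATP libraries, fell by 1.87 (adjusted p = 0.00405).

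The gene of the enzyme used in the media, Enpp1, did not pass the test against vehicle MCndM. Enpp1 was at 62.0, 53.8 and 59.0 CPM in the vehicle libraries and at 53.8, 58.8 and 65.1 CPM in the ATP libraries. Its log2 fold change was 0.024 ± 0.062 (SE; adjusted p = 0.754), and the libraries overlapped. Against ENPP1 MCndM, where Enpp1 was at 51.9, 53.7 and 54.3 CPM, it was higher by 0.15 (adjusted p = 0.0316), with overlapping libraries. Of 14 genes tested in the list of ecto-nucleotidases and related genes, 5 rose and 4 fell. Nt5e encodes CD73, which turns AMP into adenosine. Nt5e was at 10.5, 9.91 and 12.2 CPM in the vehicle libraries and at 3.47, 4.51 and 6.11 CPM in the ATP libraries. Nt5e fell by 1.21 ± 0.18 (SE) on the log2 scale (adjusted p = 2.94e-07). Entpd3, a surface diphosphohydrolase gene, had 164 counts over the vehicle and 17 over the ATP libraries and fell by 3.41. The lower genes also included Entpd7 (-0.68) and Enpp3 (-0.33), whose adjusted p was 0.0238 and ran from 0.0747 to 0.163 without ATP replicate 1 or 2 or vehicle replicate 1 or 3, and was 0.132 with library totals. The rises were in Entpd5 (0.96), Enpp5 (0.89), Enpp4 (0.73), Entpd4 (0.41) and Entpd6 (0.31), the first of which is an enzyme of the endoplasmic reticulum. Enpp2, Entpd2, Alpl and Ankh did not pass the test on the TMM scale, at 0.049, -0.30, -0.26 and 0.077 (adjusted p = 0.931, 0.408, 0.616 and 0.223).

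Inside the cell, adenosine is phosphorylated by adenosine kinase or deaminated. Of 20 genes of adenosine uptake and breakdown, 6 rose and 6 fell, or 8 and 4 with library totals. The guanine deaminase gene Gda was at 0.893, 0.964 and 0.608 CPM with vehicle and 5.50, 3.797 and 5.91 CPM with ATP MCndM. Gda rose by 2.60 ± 0.27 (SE) on the log2 scale (adjusted p = 2.65e-11). Ampd1, an AMP deaminase gene with 9 counts over the vehicle and 63 over the ATP libraries, rose by 2.59. Slc29a4, a nucleoside and monoamine transporter gene at low counts, fell by 2.28. The adenosine kinase gene Adk went from 51.5, 55.1 and 52.3 CPM to 17.5, 18.5 and 17.4 CPM and fell by 1.57 ± 0.07 (SE; adjusted p = 4.63e-23). Genes of purine synthesis, salvage and PRPP were higher in 6 and lower in 7 of 18, against 7 and 3 with library totals, with a median of -0.062 that was 0.045 on that scale, and the ribokinase gene Rbks rose by 1.03. Genes of pyrimidine synthesis and salvage were higher in 8 and lower in 7 of 24, or 10 and 4 with library totals. Dck, the deoxycytidine kinase of the salvage pathway, was at 5.84, 7.30 and 5.93 CPM with vehicle and 19.6, 19.2 and 17.7 CPM with ATP MCndM. Dck rose by 1.56 ± 0.13 (SE) on the log2 scale (adjusted p = 1.11e-13). Upp1, the uridine phosphorylase gene that degrades uridine, went from 34.6, 37.6 and 39.4 CPM to 21.1, 18.0 and 19.7 CPM and fell by 0.93. In these nucleotide lists, on the TMM scale, neither direction stood far from the shares of all genes (30.2% higher and 29.7% lower).

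The ATP medium was next compared with the other control, ENPP1 MCndM, and with ENPP1+ATP MCndM, in which ENPP1 was present with ATP on the donor cells. These comparisons use the same 3 ATP libraries as the one above. Against ENPP1 MCndM, 4057 genes were higher (30.1%) and 4053 lower (30.1%). ENPP1 and vehicle MCndM did not differ in any gene at an adjusted p under 0.05 in edgeR or DESeq2 (0 of 13461 genes, 0%), and 693 genes (5.15%) had an unadjusted p under 0.05 in edgeR. Against ENPP1+ATP MCndM, 1811 genes were higher (13.5%) and 1897 lower (14.1%), 132 and 80 of them by more than 2-fold. On the first principal component, which held 60.4% of the variance over all 15 libraries, ATP, ENPP1+ATP and AMP libraries lay on one side and vehicle and ENPP1 libraries on the other, and the ATP libraries stood apart from the rest on the second (9.13%).

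The genes that set ATP apart from ENPP1+ATP MCndM included many of the contractile program. Actc1 was at 9439, 9507 and 9031 CPM with ENPP1+ATP MCndM and 4652, 4139 and 4368 CPM with ATP MCndM, a log2 fold change of -1.09 ± 0.038 (SE; adjusted p = 2.37e-25). Cacna1c was at 112, 112 and 109 CPM with ENPP1+ATP MCndM and 58.4, 57.7 and 49.9 CPM with ATP MCndM, a log2 fold change of -1.01 ± 0.054 (SE; adjusted p = 1.25e-18). Slc8a1 was at 485, 503 and 481 CPM with ENPP1+ATP MCndM and 275, 272 and 252 CPM with ATP MCndM, a log2 fold change of -0.88 ± 0.044 (SE; adjusted p = 5.01e-20). For these myocyte genes the ENPP1+ATP libraries lay between the ATP and the vehicle libraries. Summed cardiomyocyte markers also lay between them, at 40530 to 42385 CPM with ENPP1+ATP MCndM, and their part in this difference was not tested. Bmp10 was at 8.94, 9.32 and 6.85 CPM with ENPP1+ATP MCndM and 1.70, 1.66 and 2.12 CPM with ATP MCndM, a log2 fold change of -2.19 ± 0.21 (SE; adjusted p = 4.71e-09). Il1rl1 was at 14.9, 14.4 and 15.9 CPM with ENPP1+ATP MCndM, so that ATP MCndM was higher by 1.59 ± 0.10 (SE; adjusted p = 4.83e-16). Sarcomere genes were lower with ATP than with ENPP1+ATP MCndM in 16 of 26 and higher in 3, and calcium handling and ion channel genes lower in 25 of 33 and higher in 2, against 14.1% and 13.5% of all genes. Xirp2 was not among them (log2 fold change 0.25, adjusted p = 0.14).

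Targets of p53 were higher with ATP than with ENPP1+ATP MCndM in 23 of 37 and lower in 2. Mdm2 was at 153, 150.4 and 152 CPM with ENPP1+ATP MCndM against 199, 193 and 206 CPM with ATP MCndM, a log2 fold change of 0.39 ± 0.044 (SE; adjusted p = 1.53e-09). Cdkn1a was higher by 0.30 (adjusted p = 1.08e-07), Tp53inp1 by 0.63 (adjusted p = 9.50e-13) and Bax by 0.27 (adjusted p = 3.23e-05). NRF2 and antioxidant genes were higher in 21 of 28 and S phase genes in 27 of 51. ATF4 genes were higher in 26 of 36, and Slc7a11 was at 5.98, 5.30 and 6.39 CPM with ENPP1+ATP MCndM and at 12.8, 11.7 and 10.3 CPM with ATP MCndM. Matrix genes were higher in 30 of 60 and lower in 6. Fibroblast markers, of which 3 were higher and 4 lower with ATP MCndM, summed to between 8314 and 8777 CPM with ENPP1+ATP and between 10401 and 11745 CPM with ATP MCndM, and their part in the matrix genes was not tested. Other changed genes did not pass the test between these 2 media. Aldh1l2 was at 14.01, 14.8 and 16.4 CPM with ENPP1+ATP MCndM, a log2 fold change of 0.044 ± 0.084 (SE; adjusted p = 0.745), Unc5c of -0.026 ± 0.29 (SE; adjusted p = 0.961), and Rpl10a of 0.062 ± 0.047 (SE; adjusted p = 0.358).

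Long genes were lower with ATP MCndM, a pattern that was noticed after the values were seen. As no rat annotation was used here, the length of a gene was taken from the mouse gene of the same symbol (GENCODE M21, GRCm38), which 11702 of 13461 tested genes (86.9%) had. The 628 genes with a mouse span over 200 kb had a median log2 fold change of -0.54, and 409 of them (65.1%) fell and 68 (10.8%) rose, beside a median of 0.026 for the other genes with a span. The median was lower in the longest genes. It was 0.067 in 2565 genes up to 10 kb, 0.083 in 2247 genes of 10 to 20 kb and -0.14 in 1121 genes of 100 to 200 kb, and went down to -0.47 in 519 genes of 200 to 500 kb and -1.07 in 109 genes over 500 kb. In the last bin 78.0% were lower and 3.67% higher. The medians of the last 2 bins were -0.27 and -0.79 among genes above the median expression and -0.65 and -1.35 among genes below it. Spearman's rho between span and log2 fold change was -0.18 across genes, which are not independent replicates. Of the genes named above, Gpc6 (1051 kb in mouse), Kcnq5 (564 kb) and Unc5c (369.7 kb) are over 200 kb, and so are Cacna1c (609 kb), Ryr2 (554 kb) and Slc8a1 (365 kb) of the calcium list. The same holds for Slc7a11 (551 kb), Pde10a (461 kb), Adk (396 kb), Pola1 (327 kb) and Acaca (272 kb), each of which fell. The calcium list holds 10 such genes of 33, with a median of -0.73, and -0.38 for the rest. Short genes were also among the falls, such as Bmp10 (8.68 kb) and Tcf21 (2.89 kb), and no p53 target with a span was over 200 kb. Against ENPP1+ATP MCndM the same 2 bins had medians of -0.16 and -0.28.

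**Figure D5:**
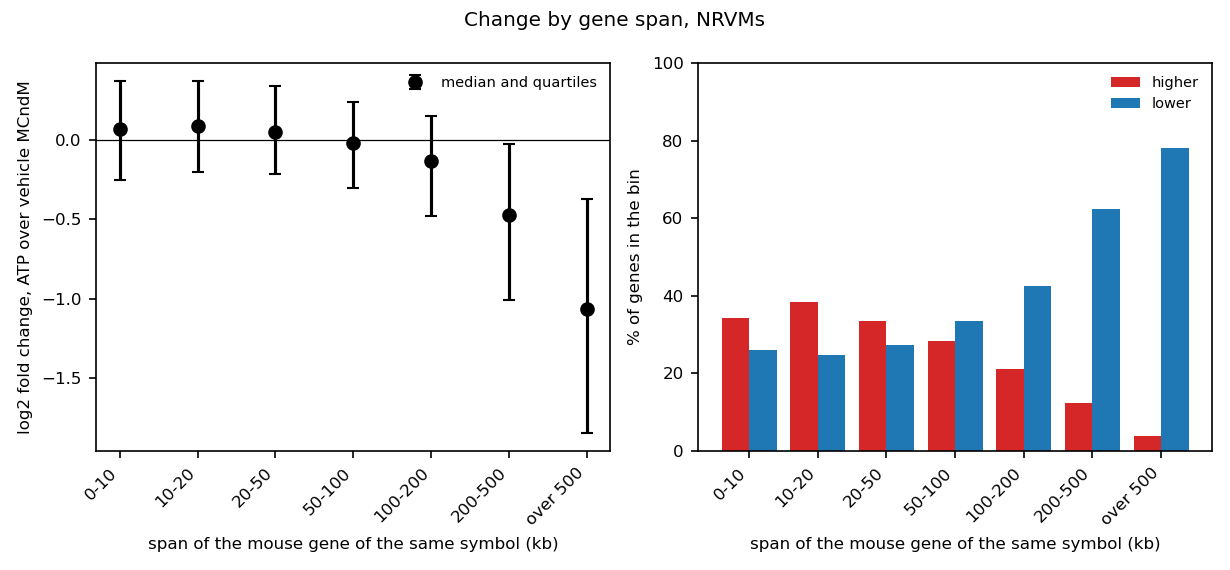
Left, median log2 fold change of ATP over vehicle MCndM with quartiles, by the span in kb of the mouse gene of the same symbol; right, share of the genes of each bin called higher (red) or lower (blue). The median lies at -1.07 over 500 kb, where 78.0% of genes were lower.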

How the data were processed

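RNA of NRVM in 5 conditioned media was sequenced, 3 libraries per medium. The authors aligned reads with STAR 2.5.3a to rn6, per the labels, and deposited raw read counts per gene. The counter, annotation and strand setting are not given in the sources used here, so reads of overlapping genes may be shared. From the 20158 genes, those passing edgeR's filterByExpr (13461) were fitted over all 15 libraries with TMM factors and the robust quasi-likelihood test (edgeR 4.0.16, R 4.3.3), with 1 mean per medium. P-values were adjusted over all genes tested by the Benjamini-Hochberg method at 0.05. The fit was tested on simulated data in which few genes were changed, so that test does not address the choice of scaling. The genes named were the 12 largest rises and falls with a mean log2 CPM (prior count 2) of at least 2 and no overlap between libraries, up to 3 called members per list by size, all purinergic receptor and ecto-nucleotidase genes, and Enpp1, Bax, Bak1, Bcl2, Cdkn1a and Mdm2. Members beyond this rule were named after their values were seen. The comparison and the 45 lists were chosen with earlier results of these data known. Alternatives were DESeq2 1.42.0, RLE factors, library totals, no filter, at least 10 counts in 3 libraries, the 6 libraries alone, a fold threshold of 1.2, a replicate block and each library left out. Some members of the lists are not reported here.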

Additional observations from a re-analysis of the deposited data

How the results depend on the processing

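The direction and call of the 168 named genes, 157 of them called, were recomputed under each alternative. Of 2347 values, 2318 kept direction and side of the threshold, 19 lost and 4 gained a call, and 6 changed sign, none of the last in a called gene. Those 6 were Enpp1 (from -0.048 to 0.087 over single libraries left out, with -0.048 without ATP replicate 3 and -0.031 without vehicle replicate 2), Enpp2 (from -0.34 to 0.63, with -0.34 without ATP replicate 3, -0.24 without vehicle replicate 1 and -0.11 without vehicle replicate 3) and P2rx7 (from -0.79 to 0.047, with 0.047 without vehicle replicate 3). A test against a fold of 1.2 left 2201 genes higher and 2313 lower, since it asks for a larger change. Leaving out 1 library at a time gave 3609 to 3792 higher and 3715 to 3869 lower genes. DESeq2 called 3743 higher and 3871 lower, and its size factors (RLE) in edgeR gave 3999 and 4079. Library totals gave 5322 higher and 3014 lower, and 3 of the 4 gained calls among named genes came with them. The replicate numbers did not pair the libraries (correlations of deviations -0.040, -0.017 and 0.0032, and 1 of 3 ATP libraries closest to its own number), and a fit with the replicate block called 4069 higher and 4024 lower. With the block, 8116 genes differed from ENPP1 and 3750 from ENPP1+ATP MCndM, and DESeq2 gave 7651 and 3313. The median of long genes ran from -0.44 with library totals to -0.56 without ATP replicate 2, in alternatives chosen after seeing the data. Depth limits genes at few counts, such as P2ry4 and Mx2, whose SE were 0.62 and 0.66 on the log2 scale.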

Other observations

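Some genes were detected in one medium only or nearly so, below the level at which genes were named in the text, and these were chosen after their values were seen. Serpina9, a serine protease inhibitor gene known from germinal centre B cells, had no count in the 3 vehicle libraries and was at 4.25, 4.51 and 5.08 CPM in the ATP libraries. Epha10, an ephrin receptor gene, and Gnat2, a transducin gene of cone photoreceptors, likewise had no count with vehicle MCndM and were at 1.37, 1.36 and 1.48 and at 1.31, 1.36 and 1.29 CPM with ATP MCndM. In the other direction, Otof, which encodes the vesicle protein otoferlin, was at 2.41, 3.79 and 3.27 CPM with vehicle and 0.131, 0 and 0 CPM with ATP MCndM. Alox5, the 5-lipoxygenase gene of leukotriene synthesis, was at 0.137, 0.138 and 0 CPM with vehicle and 3.40, 5.40 and 4.95 CPM with ATP MCndM. No fold change is given for these genes, as the level in one medium rests on few counts or none.

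Markers within one cell type list did not always move together. Of the endothelial markers, Cdh5 (1.84), Emcn (1.45), Egfl7 (1.15) and Kdr (0.46) rose and Tek fell by 0.86, while Vwf was at -0.019 (adjusted p = 0.968) and Flt1 at 0.032 (adjusted p = 0.878). Of the smooth muscle or pericyte markers, Tagln rose by 0.94, whereas Acta2 fell by 0.55, Pdgfrb by 1.00 and Cspg4 by 0.66. Of the zinc genes, the transporter genes Slc30a2, at low counts, and Slc30a1 rose by 1.82 and 0.67 and the metallothionein gene Mt2A fell by 0.88, with Mt1 at -0.23 (adjusted p = 0.329). The Y-linked genes, Kdm5d and Eif2s3y, fell by 0.47 (adjusted p = 5.01e-04) and 0.33 (adjusted p = 0.00233), and Ddx3y was at 0.60 (adjusted p = 0.157). The sources used here do not give the share of cells from male pups in each culture, and its part in these values was not tested.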
